A study of Mus musculus with 11 samples.

Results

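ER-associated degradation (ERAD) is the route by which misfolded proteins are taken out of the endoplasmic reticulum (ER) and destroyed. The genes described here are 10 of its core components, *Edem1*, *Edem2*, *Edem3*, *Os9*, *Sel1l*, *Syvn1*, *Herpud1*, *Derl1*, *Derl2* and *Derl3*, taken by name from a table of 24849 genes. They occupied 11 entries of that table, because *Derl2* had 2 entries, whose counts were summed. RNA-seq counts came from AML12, a line of mouse hepatocytes, in 4 KO libraries (KO 5 to KO 8), 3 WT libraries (WT 5-6, WT 7 and WT 8) and 4 KI libraries (KI 5 to KI 8). The WT cells are the parental genotype. The KO cells carry the genotype label TXNDC5 Knockdown and are, in the study's methods, stable cells in which CRISPR/Cas9 and a repair plasmid placed a puromycin resistance gene in *Txndc5*, followed by puromycin selection. The KI cells carry the label TXNDC5 Knockin, with TXNDC5 to be overexpressed from the ROSA26 locus. Neither agent nor time point is given for any group. Selection and passage of the derived lines cannot be told apart from the change in *Txndc5*, and nothing states that the libraries of a group came from separate cultures, so the p-values measure the spread between these libraries only.

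In ERAD, mannosidase-like proteins of the EDEM family trim the sugar chains of misfolded glycoproteins, and the lectin OS9 reads the trimmed chains. The substrate is handed to a complex in the ER membrane, in which SEL1L holds the ubiquitin ligase SYVN1 (also called HRD1) and HERPUD1 helps to assemble it. The Derlins are membrane proteins that help the substrate to cross to the cytosol, where the ATPase VCP pulls it out for the proteasome. Hepatocytes secrete large amounts of protein, and several ERAD genes are textbook targets of the unfolded protein response (UPR), in which the factors ATF6 and XBP1 bind short promoter motifs. TXNDC5 is a disulfide isomerase of the same compartment.

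The promoters of *Herpud1*, *Syvn1*, *Derl3*, *Edem1* and *Sel1l* are printed here, the first 3 because they held an exact UPR motif and the last 2 because their counts were higher in the KO libraries without such a motif. Each run gives the 160 bases before the RefSeq transcript start on GRCm38.p6, 5′ to 3′ on the strand of the gene, with a motif in capitals. They lie at chr8:94386269-94386428 (plus strand), chr19:6046416-6046575 (plus), chr10:75893238-75893397 (plus), chr6:108828481-108828640 (plus) and chr12:91849158-91849317 (minus).
Herpud1: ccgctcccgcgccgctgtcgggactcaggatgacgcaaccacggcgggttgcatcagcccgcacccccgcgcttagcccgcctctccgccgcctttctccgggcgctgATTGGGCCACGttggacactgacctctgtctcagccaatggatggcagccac
Syvn1: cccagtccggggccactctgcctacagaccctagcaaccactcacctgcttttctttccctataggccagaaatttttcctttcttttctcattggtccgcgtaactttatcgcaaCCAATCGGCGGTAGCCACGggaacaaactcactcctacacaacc
Derl3: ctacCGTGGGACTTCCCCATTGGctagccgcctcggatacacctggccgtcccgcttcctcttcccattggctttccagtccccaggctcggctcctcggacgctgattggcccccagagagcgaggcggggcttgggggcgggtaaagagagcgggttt
Edem1: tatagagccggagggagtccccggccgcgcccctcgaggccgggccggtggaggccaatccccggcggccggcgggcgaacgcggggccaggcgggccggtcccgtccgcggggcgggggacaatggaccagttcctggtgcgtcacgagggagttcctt
Sel1l: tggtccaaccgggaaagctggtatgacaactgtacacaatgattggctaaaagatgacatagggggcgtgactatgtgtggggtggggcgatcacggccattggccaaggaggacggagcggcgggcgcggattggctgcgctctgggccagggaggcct

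The motifs were searched on both strands in the 250 bases before each start, in 10 windows of 9 of the 10 genes and in all 32851 windows of the table. The ER stress element ERSE, spelled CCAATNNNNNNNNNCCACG, stood in *Syvn1* on the plus strand at bases 44 to 26 before the start and in *Derl3* on the minus strand at bases 156 to 138. It was present in 0.113% of all windows. The related element ERSE-II, spelled ATTGGNCCACG, stood in *Herpud1* at bases 52 to 42 before the start and in 0.0304% of all windows. The XBP1 motif UPRE (TGACGTGG, 0.563% of all windows) and the ATF4 motif CARE (TGATGNAAT, 0.816% of all windows) were found in 0 of the 9 genes. The short core CCACG, which ERSE and ERSE-II contain, was in 8 of the 9 genes and in 28.3% of all windows. A match is a stretch of letters and no evidence of binding, and a missing match says only that these exact letters were not in the window.

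On GRCm38 (GENCODE M21), the genes lie apart from each other. *Edem3* is at chr1:151755371-151822051, *Edem2* at chr2:155701677-155729475, *Edem1* at chr6:108828641-108859356, *Herpud1* at chr8:94386438-94395377 and *Derl2* at chr11:71007164-71019841. *Sel1l* is at chr12:91806043-91849157, *Derl1* at chr15:57869502-57892448 and *Syvn1* at chr19:6046576-6053712. *Derl3* (chr10:75893413-75895941) and *Os9* (chr10:127095650-127121131) share a chromosome. Among their exons, those of *Derl2* overlap *Mis12* on the opposite strand over 231 bases (2.87% of its exon bases), and those of *Syvn1* overlap *Mrpl49* on the opposite strand over 91 bases (1.87%). The sources used here do not state whether counting used strand, so reads in these stretches cannot be assigned.

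Library totals were 30380360 to 38422243 counts for KO, 29840366 to 30364098 for WT and 32360709 to 35335070 for KI. *Txndc5*, the gene the lines were made for, had 287 to 430 counts per KO library, 3299 to 4046 per WT library and 5344 to 6723 per KI library. It was lower in KO than in WT by a log2 fold change of -3.81 (SE 0.15, adjusted p = 4.09e-08, from the quasi-likelihood test of edgeR, adjusted by Benjamini-Hochberg over all genes tested, as for every adjusted p here). Against WT the libraries labelled KI were only 0.24 higher (SE 0.12, adjusted p = 0.136), so the counts of the mouse gene did not pass the test for the overexpression that the label names. Levels are given as counts relative to library size (CPM), adjusted by edgeR's TMM factors over all 11 libraries, and fold changes come from a separate fit of each pair of groups. In these units *Txndc5* had 158 to 179 CPM in KI and 138 to 147 in WT, so every KI library was above every WT library. In WT, 1 newly assembled entry took 11.3% to 17.1% of the counts, against 4.32% to 6.44% in KO and 4.82% to 9.12% in KI, and the TMM factors were 0.744, 0.816 and 0.947 in WT and 1.02 to 1.13 elsewhere. Without TMM, scaled by library totals alone, all genes had a median log2 fold change of 0.38 instead of -0.03 in KO against WT and of 0.30 instead of -0.02 in KI against WT. The share of calls that were higher was then 72.8% instead of 48.4% and 76.3% instead of 50.2%. All directions below are therefore relative to the bulk of the genes.

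Hepatocyte markers were present, 12 of 12 above 3 counts in every library, with a summed level of 9830 to 11700 CPM in KO, 7430 to 9490 in WT and 8620 to 10200 in KI. *Alb*, the gene of the secreted protein albumin, had 3590 to 4770 CPM in KO, 373 to 739 in WT and 160 to 302 in KI. The list did not move as 1 group. In KO against WT 7 markers were higher (58.3%) and 3 lower (25%), where 26.7% and 28.4% of all genes tested were. In KI against WT 5 were higher (41.7%), unlike *Alb*, and 2 lower (16.7%), where the shares of all genes were 21.2% and 21.0%. Among secreted proteins *Trf* had 1220 to 1450 CPM in KO and 2320 to 4220 in WT. *Ttr* had 393 to 532 and 612 to 1040, and *Serpina1a* 0.253 to 1.26 and 6.7 to 9.94. Of 5 biliary markers 4 were above that floor, with *Epcam* at 0, and their sum was 1340 to 1500 CPM in KO, 2970 to 4380 in WT and 2600 to 3080 in KI. Of these, *Spp1* had 211 to 282 CPM in KO and 1940 to 3290 in WT, while *Krt19* was higher in KO, with 1030 to 1180 CPM against 653 to 862. Of 8 mesenchymal markers *Vim* and *Col1a1* were above the floor in every KO library, *Vim* and *Des* in every KI library and *Vim* alone in every WT library. *Col1a2*, *Col3a1* and *Lrat* were at 0, and the sum, nearly all *Vim*, was 1170 to 1280 CPM in KO, 689 to 896 in WT and 689 to 795 in KI. The 8 endothelial and immune markers summed to 1.57 to 2.32 CPM in KO, 6.64 to 9.2 in WT and 2.52 to 5.9 in KI, with 1 above the floor in every KO library and 2 in the others. These values move with the groups, and their part in the results below was not tested. In bulk RNA a smaller share of cells that express a gene and less of its RNA per cell cannot be told apart.

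*Herpud1*, *Edem1* and *Sel1l* were the ERAD genes with higher counts in the KO than in the WT cells, each by a factor between 1.68 and 1.78, and *Derl2* and *Edem2* were lower. Of the 10 genes, 9 had enough counts for the test, and 3 of them were higher (33.3%), 2 lower (22.2%) and 4 not called. Among all 13359 genes tested, 26.7% were higher and 28.4% lower in KO, so the number of ERAD genes called in either direction was close to that background. Their median log2 fold change was 0.25, against -0.03 for all genes. The other tested genes had medians of -0.35 on the chromosome of *Sel1l*, -0.34 on that of *Derl2* and -0.33 on that of *Syvn1*. On that of *Edem2* it was 0.27, and on those of the remaining tested genes it lay between -0.1 and 0.08. The part of these shifts in the values below was not tested. The KO and WT libraries did not overlap for 6 of the 9 genes, against 55.3% of all genes. With library totals 7 of the 9 were higher and 0 lower, where 7799 of all genes were called and 72.8% of those calls were higher. The median of the 9 was then 0.66, against 0.38 for all genes. *Edem1*, *Sel1l* and *Herpud1* were the genes called higher under both scalings.

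**Figure D1:**
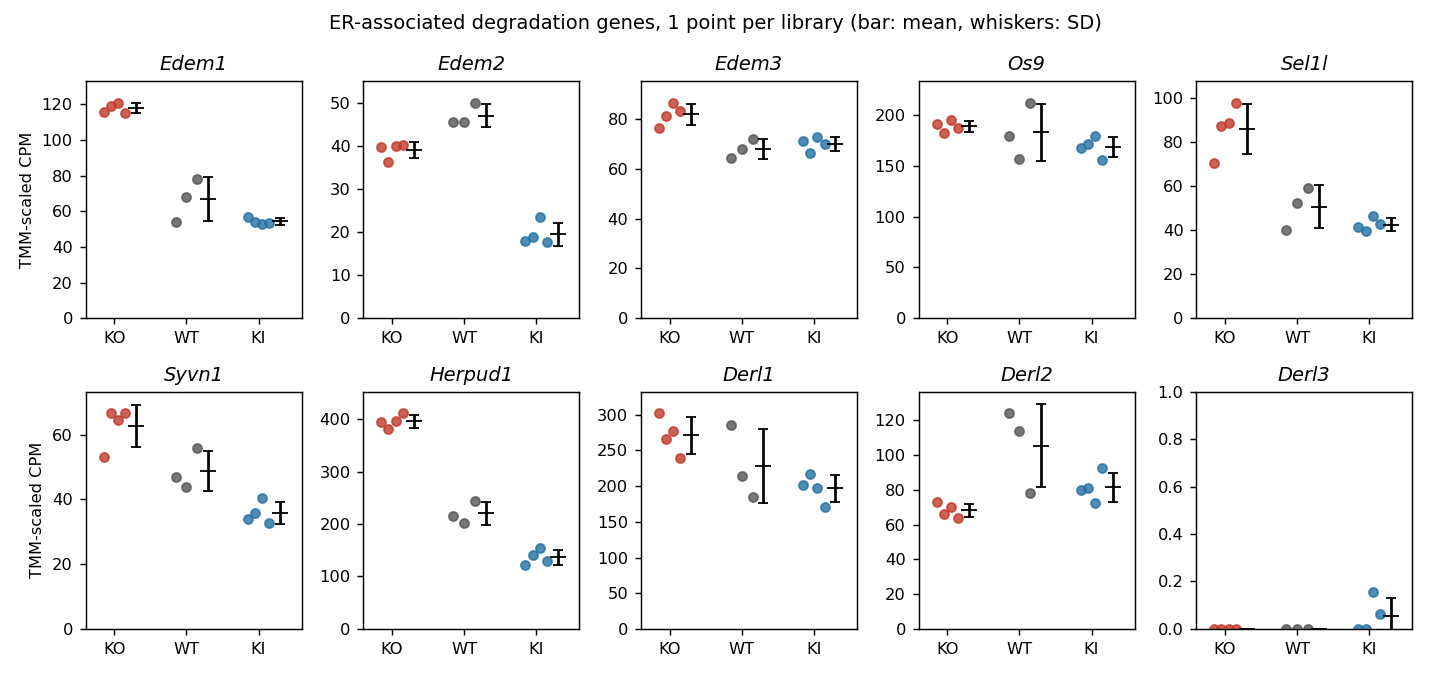
Level of each ERAD gene in TMM-scaled CPM (y axis, from 0, each panel with its own scale) in the KO, WT and KI libraries. Each point is 1 library, the bar is the group mean and the whiskers are the SD. The KO points of *Herpud1*, *Edem1* and *Sel1l* lie above all WT and KI points, and the KI points of *Edem2* and *Herpud1* lie below all others.

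*Edem1*, which speeds the removal of misfolded glycoproteins, had 116, 119, 121 and 115 CPM in KO and 54.1, 68.3 and 78.2 in WT. The lowest KO library was far above the highest WT library, WT 8, and the KO libraries varied little. The log2 fold change was 0.79 (SE 0.14, adjusted p = 0.000646), and it stayed between 0.69 and 0.95 and was called in all 7 fits that left out 1 library. *Edem2*, the mannosidase held to make the first cut in this trimming, had 39.8, 36.3, 40 and 40.3 CPM in KO and 45.6, 45.5 and 50.1 in WT. All KO libraries were below all WT libraries, but the difference was small. At a log2 fold change of -0.29 (SE 0.11, adjusted p = 0.0499) it barely passed the threshold of 0.05, passed it in 0 of the 7 fits without 1 library, and with library totals it was 0.12. *Edem3*, a mannosidase of the same family, had 76.5, 81.1, 86.5 and 83.3 CPM in KO against 64.2, 67.7 and 72 in WT, with no overlap. It was not called, at a log2 fold change of 0.25 (SE 0.11, adjusted p = 0.0784). *Os9* had 191, 182, 195 and 187 CPM in KO, within the WT values of 179, 157 and 212. Its log2 fold change was 0.03 (SE 0.12, adjusted p = 0.865) and took either sign as libraries were left out, from -0.05 to 0.17.

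*Sel1l* and *Syvn1*, the scaffold and the ligase of the membrane complex, were called differently. *Sel1l* had 70.5, 87.2, 88.7 and 98 CPM in KO and 40.2, 52.3 and 59.4 in WT. The groups did not overlap, although both were spread, and the log2 fold change was 0.74 (SE 0.16, adjusted p = 0.00261, called in all 7 fits without 1 library). *Syvn1* had 53.1, 66.6, 64.5 and 66.6 CPM in KO and 47, 43.9 and 55.8 in WT. Here KO 5 fell below WT 8. The log2 fold change was 0.34 (SE 0.13) with an adjusted p that rounds to 0.05 and lay just above the threshold, and the gene was called without KO 5 (0.41, adjusted p = 0.0283) and without WT 8 (0.47, adjusted p = 0.0058). Whether *Sel1l* and *Syvn1* differ from each other in their response was not tested. *Herpud1*, the ubiquitin-like membrane protein that joins them, had 394, 381, 397 and 411 CPM in KO and 215, 202 and 244 in WT. The KO libraries lay together well above the WT libraries. Its log2 fold change of 0.83 (SE 0.12, adjusted p = 0.000193) was close to that of *Edem1*, which was the larger of the pair without WT 7 (0.83 against 0.79) and without WT 8 (0.95 against 0.93). It stayed between 0.79 and 0.93 without single libraries and was called in all 7 fits. With library totals *Herpud1*, *Edem1* and *Sel1l* had 1.23, 1.19 and 1.14.

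Of the Derlins, *Derl2* was called in KO against WT and *Derl1* was not, under TMM and with all 7 libraries. It had 72.7, 66.3, 69.9 and 63.7 CPM in KO and 124, 114 and 78.3 in WT. No KO library reached the lowest WT library, WT 8, but WT 8 was nearer to KO than to the other WT libraries. The log2 fold change was -0.65 (SE 0.16, adjusted p = 0.00443), which is 1.57-fold lower, and with library totals it was -0.21 and not called (adjusted p = 0.175). The other 1008 tested genes of chromosome 11 had a median of -0.34 under TMM, and 34.7% of them were below *Derl2*. *Derl1* had 302, 266, 277 and 239 CPM in KO and 286, 214 and 185 in WT. These groups overlapped, with WT 5-6 above 3 of the 4 KO libraries, and the log2 fold change was 0.23 (SE 0.16, adjusted p = 0.245). *Derl1* was called without WT 5-6 (0.44, adjusted p = 0.022) and with library totals (0.66, adjusted p = 0.0011). *Derl3* had 0 counts in every KO and WT library, which allows at most 0.069 to 0.09 CPM in KO and 0.106 to 0.134 CPM in WT by the limit of 3 counts, for counting error only. In the KI libraries it had 0, 0, 6 and 2 counts, so it was not tested and no fold is given.

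**Figure D2:**
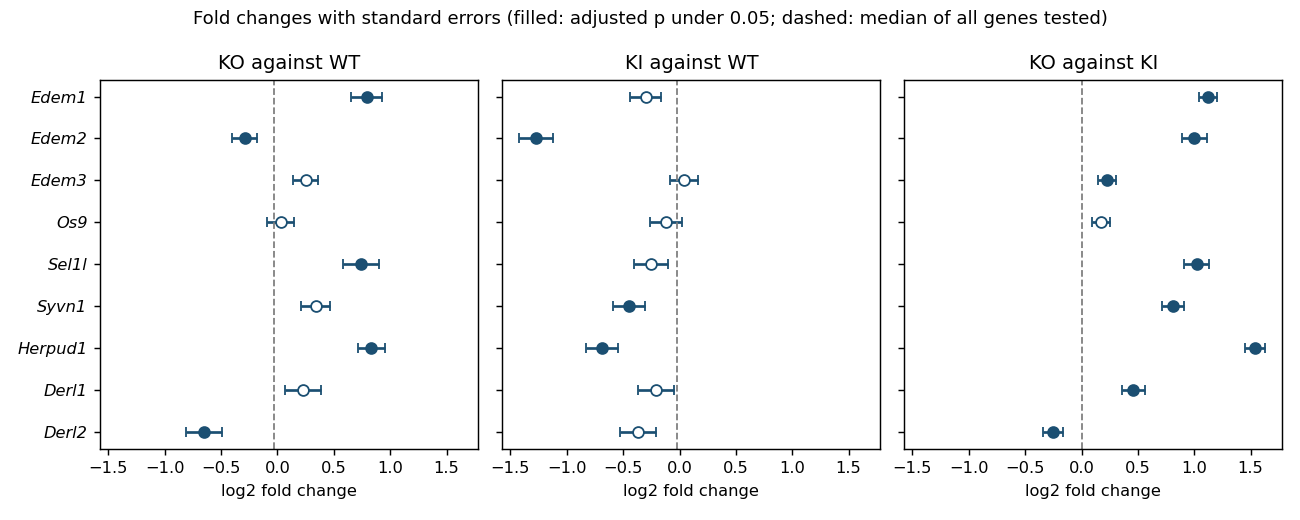
Log2 fold change (x axis) with its standard error for the 9 tested ERAD genes (y axis) in the 3 comparisons, with filled points where the adjusted p of edgeR's test was under 0.05. The dashed line is the median of all genes tested. *Herpud1*, *Sel1l* and *Edem1* are to the right in KO against WT and KO against KI, and *Edem2* is farthest to the left in KI against WT at -1.27.

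In the libraries labelled KI, *Edem2*, *Herpud1* and *Syvn1* were lower than in WT and none of the 9 genes was higher. The counts were 3 lower (33.3%), 0 higher and 6 not called, where 21.2% of all 13534 genes tested were higher and 21.0% lower in KI. The median log2 fold change was -0.30, against -0.02 for all genes. KI and WT did not overlap for 3 of the 9 genes, against 44.7% of all genes. The count of 0 higher was the same at an unadjusted p under 0.05 and with DESeq2 or limma, and *Edem3* was the sole gene above 0 in edgeR's fit, at 0.04 (adjusted p = 0.811). The call of *Edem2* was kept under every scaling, whereas those of *Herpud1* and *Syvn1* were lost with library totals, at -0.37 (adjusted p = 0.0926) and -0.13 (adjusted p = 0.592).

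*Edem2* had 17.9, 18.9, 23.5 and 17.7 CPM in the KI libraries, against 45.6, 45.5 and 50.1 in WT. The highest KI library was far below the lowest WT library. The log2 fold change of -1.27 (SE 0.15, adjusted p = 3.3e-05), which is 2.41-fold lower, was between -1.37 and -1.22 in the 7 fits without 1 library and called in each. *Herpud1* had 122, 141, 154 and 129 CPM in KI, all below the lowest WT value of 202. Its log2 fold change was -0.69 (SE 0.14, adjusted p = 0.00155), also called in each of the 7 fits. *Syvn1* had 34.1, 35.9, 40.4 and 32.7 CPM in KI, against at least 43.9 in WT. The log2 fold change of -0.45 (SE 0.14, adjusted p = 0.0209) was called in 4 of the 7 fits without 1 library, and lost without KI 5, KI 6 or KI 8, at an adjusted p of up to 0.0681.

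The other 6 tested genes were not called in KI against WT. *Edem1* had 56.9, 54.1, 52.8 and 53.3 CPM in KI, of which 2 were below the lowest WT library and 1 was level with it, at a log2 fold change of -0.30 (SE 0.14, adjusted p = 0.109). *Sel1l* had 41.4, 39.5, 46.6 and 42.7 CPM in KI (-0.25, SE 0.15, adjusted p = 0.199). These KI values sat at the low end of a wide WT range in both genes. *Derl2* had 79.6, 81.2, 72.6 and 92.8 CPM (-0.37, SE 0.16, adjusted p = 0.0859), *Derl1* 202, 217, 197 and 171 CPM (-0.21, adjusted p = 0.31) and *Os9* 167, 171, 179 and 156 CPM (-0.12, adjusted p = 0.521). *Edem3* had 71, 66.2, 72.7 and 69.9 CPM, within or just above the WT range. With all 11 libraries in one fit 5 of the 9 genes were called in place of 3, and without WT 5-6 also 5.

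Against the libraries labelled KI, *Herpud1*, *Edem1*, *Sel1l*, *Edem2*, *Syvn1*, *Derl1* and *Edem3* were higher in KO. The comparison sets the cells with the fewest *Txndc5* counts against those with the most. Of the 9 genes 7 were higher in KO (77.8%) and 1 lower, where 27.0% of all 13269 genes tested were higher and 27.0% lower. The libraries did not overlap for 8 of the 9, against 48.6% of all genes, and the median log2 fold change was 0.81, against 0.00 for all genes. The KI libraries are not a control, and a higher value in KO here can come from either line.

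*Herpud1* differed most, at 2.91-fold higher in KO (log2 fold change 1.54, SE 0.09, adjusted p = 2.1e-09). The next were *Edem1* at 1.12 (SE 0.08, adjusted p = 1.39e-08), *Sel1l* at 1.02 (SE 0.11, adjusted p = 1.32e-06) and *Edem2* at 1.00 (SE 0.11, adjusted p = 2.28e-06). For *Edem2* the difference came with low KI values, since the KO libraries were below WT too. *Syvn1* was 0.81 higher (SE 0.10, adjusted p = 1.09e-05) and *Derl1* 0.46 higher (SE 0.10, adjusted p = 0.000793). All 6 were called in each of the 8 fits that left out 1 library. *Edem3* (0.23, adjusted p = 0.0267) and *Derl2* (-0.25, adjusted p = 0.0281) were called in only 3 of the 8, and *Derl2* was the sole called gene whose libraries overlapped. The other 1002 tested genes of chromosome 11 had a median of -0.27 in KO against KI, and 51.8% of them were below *Derl2*. *Os9* did not pass the test (0.17, SE 0.08, adjusted p = 0.0836), although its KO libraries were all above its KI libraries.

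*Derl2* needs a closer description, because its 2 entries shared counts differently from library to library. The first entry held 34.2%, 29.1%, 34.1% and 45.6% of the counts in KO and 34.1%, 31.4% and 37.9% in WT. In the KI libraries it held 40.6%, 71.5%, 53.5% and 32.9%, while the sum of both entries was steady at 2779 to 3053 counts. Tested entry by entry, both were lower in KO than in WT, at -0.59 (SE 0.17, adjusted p = 0.0149) and -0.69 (SE 0.19, adjusted p = 0.012). In KO against KI the first entry was at -0.72 (SE 0.19, adjusted p = 0.00645) and the second at 0.08 (SE 0.27, adjusted p = 0.832). In KI against WT they had opposite signs and neither was called, at 0.15 (SE 0.22, adjusted p = 0.62) and -0.75 (SE 0.29, adjusted p = 0.0557). The 2 entries thus gave unlike values for the same libraries, and the sum was used for all other statements. Each of the other 9 genes had 1 entry.

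**Figure D3:**
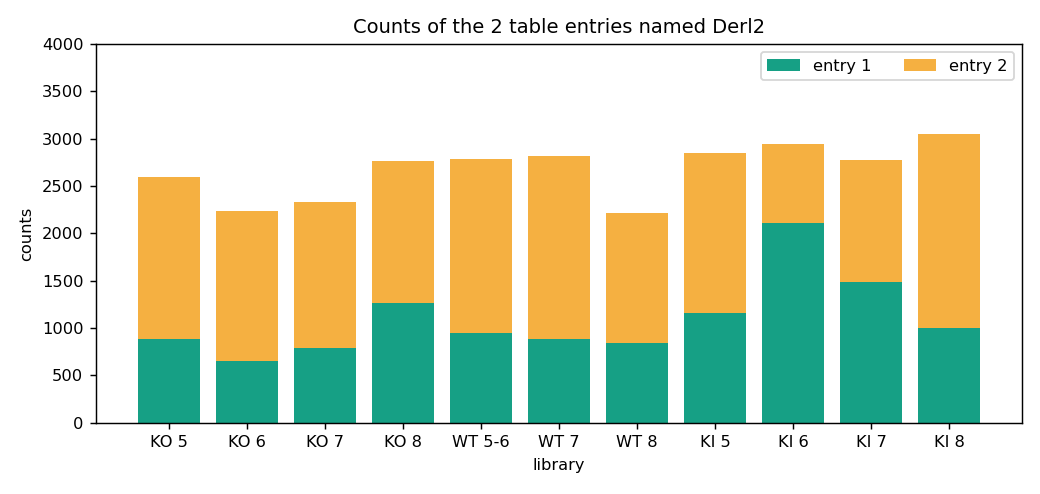
Counts (y axis, from 0) of the 2 table entries named *Derl2*, stacked for each of the 11 libraries (x axis). The total stays between 2213 and 3053 counts, while the first entry takes from 29.1% of it in KO 6 to 71.5% in KI 6.

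Per kb of exon, the ERAD genes formed a high and a low tier in all 3 groups. In WT, *Herpud1* had 94.3 ± 9.15 CPM per kb (SD, n = 3), *Os9* 69.5 ± 10.5 and *Derl1* 68.6 ± 15.6. The low tier ran from *Edem2* at 13.6 ± 0.75 through *Derl2* (13.1), *Edem3* (10.7), *Edem1* (10.4) and *Syvn1* (10.1) to *Sel1l* at 5.92 ± 1.13, with *Derl3* at 0. Neighbours from *Edem2* to *Syvn1* overlapped in WT, as did *Os9* and *Derl1*, so their order is not settled. In KO, *Herpud1* stood alone at 170 ± 5.2 (SD, n = 4) and *Edem1* led the low tier at 18.2 ± 0.463, above *Syvn1* at 12.9, with *Sel1l* (10.1) and *Derl2* (8.47) overlapping at the low end. In KI, *Os9* (64), *Derl1* (59.2) and *Herpud1* (58.4) overlapped, and *Edem2* fell to 5.63 ± 0.788, beside *Sel1l* at 4.97. The libraries of *Herpud1* were apart from those of the next gene in KO and WT, and in KI they overlapped those of *Derl1*, the gene above it. The order depends on the length used, and with the longest transcript in place of all exons *Derl2* had 15.6 CPM per kb in KO, above *Sel1l* at 13.7 and *Edem3* at 12.9, and *Herpud1* had 203, 113 and 69.8 CPM per kb in KO, WT and KI.

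**Figure D4:**
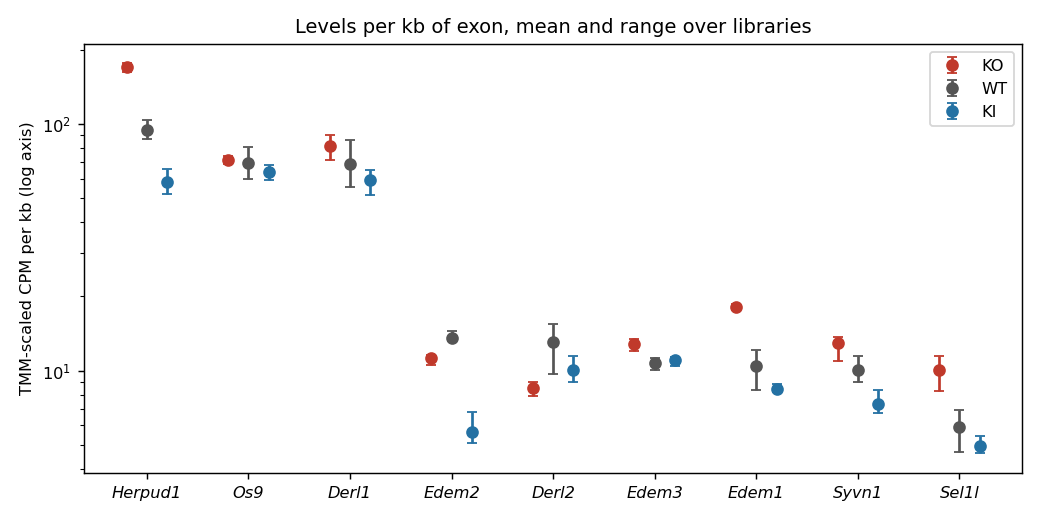
Level in TMM-scaled CPM per kb of exon (y axis, log scale) of the 9 detected ERAD genes (x axis, in WT order) in KO, WT and KI. Points are means and the lines span the lowest to the highest library. *Herpud1*, *Os9* and *Derl1* lie above 50 and the others below 20 in every group.

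Between libraries, *Edem1* and *Sel1l* were each other's nearest of the 9 genes, as were *Edem3* and *Os9*. The measure is the root mean square difference of log2 CPM, each gene centred on its own mean, over the 11 libraries, and it was 0.13 for both pairs. It was farthest for *Herpud1* and *Derl2*, at 0.84. Among the 76 other genes of the lists described next, the most similar to *Herpud1* was *Hspa5* (0.26), the gene of the ER chaperone BiP. *Edem1* was nearest to *Dnajb11* (0.15), *Sel1l* to *Calr* (0.18), *Edem2* to *Dnajc10* (0.25), *Syvn1* to *Ppp1r15a* (0.14) and *Derl1* to *Atf4* (0.12). *Edem3*, *Os9* and *Derl2* were nearest to *Ube2j2* (0.07), *Foxred2* (0.11) and *Rnf139* (0.14). A small value is easily reached by a gene that varies little, as *Edem3* and *Os9* do, and the libraries share their scaling.

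The remaining genes of the route were taken from 4 lists, and their counts are descriptions beside the same background. Of all genes tested, 26.7% were higher and 28.4% lower in KO against WT, and 21.2% and 21.0% in KI against WT. In KO against KI the shares were 27.0% and 27.0%. With library totals 72.8% of 7799 calls were higher in KO against WT and 76.3% of 6059 in KI against WT. In KO against KI it was 56.1% of 7015. The all-gene medians were then 0.38, 0.30 and 0.06. Of the genes of substrate recognition and trimming, 8 of 16 tested were higher and 3 lower in KO than in WT, with a median log2 fold change of 0.41. *Sdf2l1*, a partner of BiP, had 135 ± 11.5 CPM in KO (SD, n = 4) and 57.4 ± 13.9 in WT (SD, n = 3), a log2 fold change of 1.21 (SE 0.16, adjusted p = 0.000105). *Txndc11*, a thioredoxin-like protein that acts with EDEM proteins, was 1.10 higher (SE 0.19, adjusted p = 0.000539; -0.16 in KI against WT, adjusted p = 0.47), and *Dnajb11*, a cochaperone of BiP, 1.09 higher (SE 0.12, adjusted p = 3.79e-05). *Hspa5* itself had 2690 ± 274 CPM in KO, 1740 ± 310 in WT and 1030 ± 113 in KI, and was called against WT in both lines, at 0.61 (SE 0.17, adjusted p = 0.011) and -0.76 (SE 0.17, adjusted p = 0.0035). The lectin *Erlec1*, a relative of *Os9*, went the other way, with 39.6 ± 1.84 CPM in KO, 64.8 ± 1.89 in KI and 113 ± 3.94 in WT, and log2 fold changes against WT of -1.54 (SE 0.11, adjusted p = 1.35e-06) and -0.81 (SE 0.12, adjusted p = 0.000205). *Dnajb9*, another cochaperone of BiP, was lower in both lines, at -0.53 in KO (SE 0.14, adjusted p = 0.00716) and -0.51 in KI (SE 0.16, adjusted p = 0.0208), where its libraries overlapped with WT. With library totals only 1 gene of the list was lower in KO, so *Erlec1* and *Dnajb9* did not both keep that call.

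In KI against WT the recognition list had 1 higher, 7 lower and 8 not called, with a median of -0.18. *Dnajc10*, the reductase that opens disulfide bonds of ERAD substrates, had 490 ± 15.7 CPM in KI (SD, n = 4) and 1180 ± 340 in WT (SD, n = 3), a log2 fold change of -1.27 (SE 0.18, adjusted p = 0.000149). *Man1a2*, a mannosidase, was the sole higher one at 0.73 (SE 0.14, adjusted p = 0.00106), and was also higher in KO, at 0.64 (SE 0.12, adjusted p = 0.00116). In KO against KI, 9 of 16 were higher and 1 lower, with a median of 0.46. With library totals the recognition counts were 12 higher and 1 lower in KO against WT, 3 higher and 4 lower in KI against WT, and unchanged in KO against KI.

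Of the genes of the other membrane ligases, 3 of 22 were higher and 6 lower in KO against WT, with a median of -0.08. With library totals this became 10 higher and 2 lower, with a median of 0.34 against 0.38 for all genes. *Tmem129*, a ligase, was 1.00 higher (SE 0.14, adjusted p = 0.00012), and 0.44 higher in KI (SE 0.14, adjusted p = 0.0235). In KO, *Ube2j1*, the conjugating enzyme that works with SYVN1, was 0.71 higher (SE 0.11, adjusted p = 0.000329). *Trim13*, a ligase of the ER membrane, had 4.77 ± 1.37 CPM in KO, 4.26 ± 0.565 in KI (both n = 4) and 18.7 ± 5.24 in WT (SD, n = 3), with log2 fold changes against WT of -1.98 (SE 0.26, adjusted p = 9.98e-05) and -2.12 (SE 0.21, adjusted p = 1.23e-05). *Jkamp* was at -0.88 in KO (SE 0.17, adjusted p = 0.00123) and at 0.07 in KI (SE 0.16, adjusted p = 0.744). In KI against WT 3 were higher and 3 lower (median 0.06), among them *Ube2j1* at 0.57 (adjusted p = 0.00692) and *Fam8a1*, a partner of SYVN1, at -0.79 (adjusted p = 0.000528). *Fam8a1* was lower in KO too, at -0.74 (SE 0.11, adjusted p = 0.000268). The counts of the list in KI against WT became 10 higher and 2 lower with library totals and 3 higher and 6 lower with DESeq2's size factors. In KO against KI 7 were higher and 7 lower.

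Genes of extraction and delivery to the proteasome had 10 of 24 higher and 5 lower in KO against WT, with a median of 0.35, and 17 higher and 3 lower with library totals. *Vcp* had 208 ± 10.1 CPM in KO, 150 ± 5.12 in KI (both n = 4) and 84.1 ± 20 in WT (SD, n = 3), and was higher than WT in both lines, at 1.28 (SE 0.16, adjusted p = 6.15e-05) and 0.83 (SE 0.16, adjusted p = 0.00124). *Ubqln2*, a shuttle to the proteasome, was higher by 1.34 in KO (SE 0.24, adjusted p = 0.000763) and by 0.66 in KI (SE 0.23, adjusted p = 0.0328), where its libraries overlapped with WT. *Ube4a*, a ubiquitin chain elongation factor, was higher by 1.01 in KO (SE 0.15, adjusted p = 0.000233) and by 1.03 in KI (SE 0.21, adjusted p = 0.00172). *Selenok*, a selenoprotein that binds Derlins, was lower in both, at -1.12 (SE 0.20, adjusted p = 0.000641) and -1.08 (SE 0.19, adjusted p = 0.000784). So was *Ngly1*, which strips sugar chains from extracted proteins, at -1.01 in KO (SE 0.18, adjusted p = 0.000838) and -0.92 in KI (SE 0.17, adjusted p = 0.00108). *Svip*, an inhibitor of ERAD that binds VCP, was at -0.93 in KI (SE 0.18, adjusted p = 0.00139) and at -0.04 in KO (SE 0.16, adjusted p = 0.849). In KI against WT the list had 6 higher and 7 lower (median 0.19), or 11 higher and 4 lower with library totals, and in KO against KI 10 higher and 1 lower (median 0.15).

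The sensors and factors of the UPR had 3 of 14 higher, 3 lower and a median of 0.14 in KO against WT, or 6 higher and 2 lower with library totals. *Ddit3*, the stress factor CHOP, had 21.6 ± 2.07 CPM in KO, 9.91 ± 1.67 in WT and 8.86 ± 1 in KI, and was 1.10 higher in KO than in WT (SE 0.16, adjusted p = 0.00017), with -0.16 in KI against WT (SE 0.18, adjusted p = 0.494). *Atf6b*, a relative of ATF6, was higher in both lines, at 0.85 (SE 0.13, adjusted p = 0.000223) and 0.67 (SE 0.14, adjusted p = 0.00219). Under TMM, *Xbp1* was lower in both lines, at -0.65 (SE 0.14, adjusted p = 0.00266) in KO and -0.56 (SE 0.14, adjusted p = 0.00628) in KI. *Creb3l1* was at -1.91 in KO (SE 0.22, adjusted p = 3.72e-05) and 0.10 in KI (SE 0.18, adjusted p = 0.674), and the liver factor *Creb3l3* at -1.12 in KO (SE 0.25, adjusted p = 0.00277) and -1.19 in KI (SE 0.27, adjusted p = 0.00362), from low levels of at most 10.2 CPM in WT. With library totals the list had only 2 lower in KO and 1 in KI, so not every fall named here was kept in either line. In KI against WT 1 was higher and 4 lower (median -0.11), which became 4 higher and 1 lower with library totals, and in KO against KI 4 were higher and 2 lower (median 0.21).

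**Figure D5:**
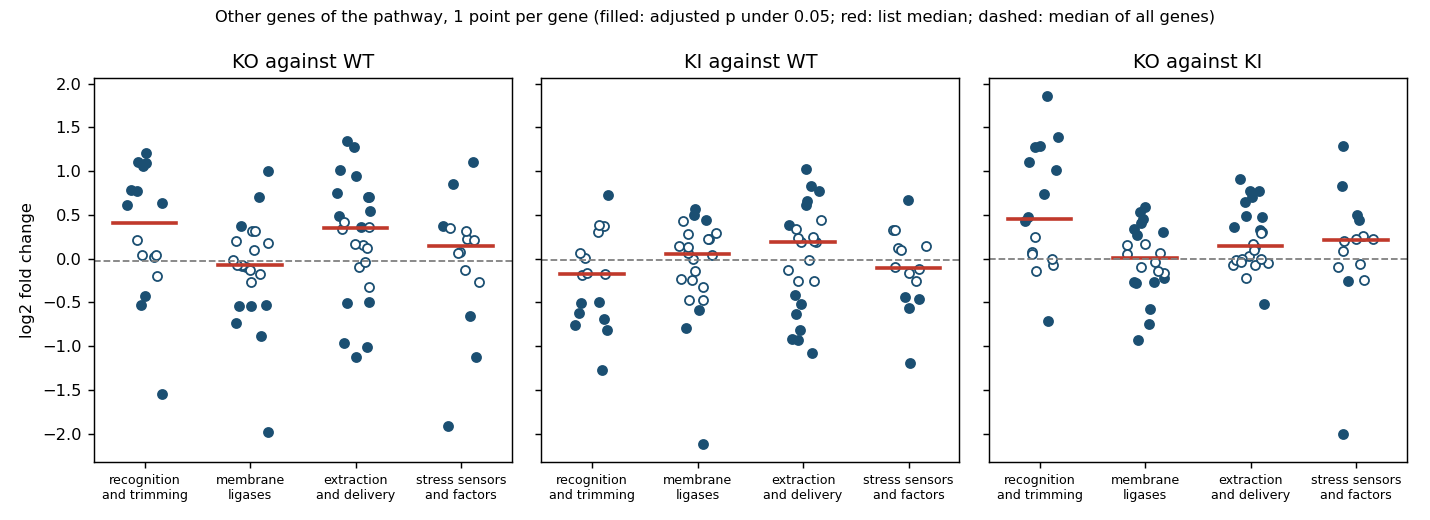
Log2 fold change (y axis) of every tested gene in 4 lists of the route (x axis) in the 3 comparisons, with the 10 core ERAD genes left out. Filled points have an adjusted p under 0.05 in edgeR's test, red bars are list medians and the dashed line is the median of all genes. The recognition list has its median at 0.41 in KO against WT and at -0.18 in KI against WT.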

How the data were processed

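Polyadenylated RNA of 4 KO, 3 WT and 4 KI libraries of AML12 cells was sequenced. The authors deposited raw counts per table entry, without normalization. The submitters' processing notes name HISAT2, TopHat2, Bowtie2 and StringTie without their roles, and the genome build and counting tool are not given in the sources used here. Of 26472 lines, 10 held no counts and were left out, and counts of entries with the same name were summed. The 11 FPKM columns of the samples and the authors' own comparisons (fold changes and p-values) were not used.

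Low counts were filtered by filterByExpr, and each pair of groups was scaled by TMM and tested with the robust quasi-likelihood test of edgeR 4.0.16 (R 4.3.3, prior count of 2). Calls had a Benjamini-Hochberg adjusted p under 0.05 over all genes tested. DESeq2 1.42.0, limma 3.58.1, other scalings and filters, left-out libraries and a replicate block were alternatives. Tested on simulated data, edgeR found 71.7% of genes changed by a log2 of 1 in KO against WT (13224 genes), 78.6% in KI against WT (13351 genes) and 89.3% in KO against KI (13089 genes). In that order, 113, 103 and 103 genes were changed by a log2 of 1 and 86, 95 and 93 by a log2 of 2. Of the unchanged genes, 15, 6 and 11 were called. Far fewer genes were changed there than were called in these data, so the shares describe the simulated setting only. The floor of detection was 3 counts, which covers counting error only. Libraries of a group differed by more than counting noise, at a chi-square per gene of 17.1 or more. Promoters came from RefSeq (GRCm38.p6), where 9 of the 10 genes had a window. Figures were drawn with matplotlib 3.10.9.

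The core genes, the lists and the tests were chosen with earlier results of these data known. The genes named are the core genes and *Txndc5*. From each list, the 2 largest rises and the 2 largest falls against WT were named, if they were called, averaged 1 CPM or more and had groups that did not overlap, as well as the list gene nearest to each core gene in log2 CPM (pseudocount 0.5). *Hspa5* and *Dnajb11*, nearest genes of the latter kind, are given with fold changes too, a choice made after their values were seen, as was that of the marker genes given by value. For 1 gene that the rule names, the value is left out here.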

Additional observations from a re-analysis of the deposited data

Results flagged for a closer look

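In the KO cells 2 values stood apart from the other 3 libraries of their group by Dixon's criterion at its 95% critical value. *Edem2* in KO 6 had 36.3 CPM against 39.8 to 40.3 CPM, a gap of 0.869 of the group's range. *Syvn1* in KO 5 had 53.1 CPM against 64.5 to 66.6 CPM, a gap of 0.842 of the range. Of 19 groups of 4 searched, chance gives 0.95. Leaving out KO 5 took *Syvn1* past the threshold in KO against WT, as given above.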

How the results depend on the processing

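Scaled by library totals instead of TMM, the sign turned for *Edem2* in KO against WT (0.12) and, in KI against WT, for *Edem1* (0.01), *Derl1* (0.14), *Sel1l* (0.06) and *Os9* (0.20). *Os9* also turned as single libraries were left out, over a range from -0.05 (without WT 7) to 0.17 in KO against WT and from -0.22 to 0.00 (without WT 8) in KI against WT. Of the core genes called in KI against WT, the number went from 3 to 1 with library totals, 5 with all 11 libraries in one fit, 1 with the replicate block and 2 to 5 with each library left out (5 without WT 5-6). For libraries of the same number, the correlations across genes of their deviations from the group means ran from -0.33 to 0.42 (KO 8 with WT 8). Of 10 libraries 2 were nearest to their own number, and the numbers are not read as pairs. Deviations within such small groups depend on one another, so this check cannot decide whether libraries of a number belong together. With the number as a replicate block, KI against WT called 1338 genes in place of 5722 and 1 other ERAD gene in place of 27, KO against WT 6158 genes and 4 core genes, and KO against KI 6453 genes and 6 core genes. The label of WT 5-6 was taken as a number of its own. In both comparisons against WT the block therefore rested on the libraries numbered 7 and 8, with few residual degrees of freedom. The causes were not tested. In KO against WT the core genes called were 4 to 6 with libraries left out and 7 with DESeq2 or library totals, in place of 5, and in KO against KI 6 to 8, in place of 8.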
